A study of Homo sapiens with 4 samples.

Results

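Keratins are the intermediate filament proteins of epithelial cells. A filament is built from pairs of 1 type I and 1 type II keratin, whose genes lie in clusters on chromosomes 17 and 12, and the pair that a cell makes follows its position and state. In breast epithelium KRT5, KRT14 and KRT15 mark the basal layer, KRT7, KRT8, KRT18 and KRT19 the luminal layer, and KRT6, KRT16 and KRT17 are known from wounded or activated epithelium, where they are switched on within hours.

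Keratin genes were taken as all spots of the human array, other than control spots, whose gene name begins with KRT and a digit, which leaves out the keratin-associated proteins. The rule found 59 genes among the 27193 named on the array, measured by 65 probes on 101 spots. RNA from MCF10A.B2 cells was hybridised to 4 single-colour arrays on 1 slide, 2 of control cells and 2 of cells stably carrying a tetracycline-inducible shRNA against PAK1. MCF10A is a breast epithelial line, and its B2 derivative carries a chimeric HER2 that the synthetic crosslinker AP1510 activates. Both groups were grown with horse serum, serum starved for 3 h and treated with AP1510 for 15 min. The controls are called control or wild type without naming a vector, and no array of a non-targeting shRNA was analysed here, so the loss of PAK1 and the presence of an shRNA cannot be told apart. The state of the inducer was not given in the sources used here. The series design speaks of cells from 2 tumors per group whereas every sample label names the cell line, so whether the arrays of a group are separate cultures is not settled and p-values measure only the spread between these samples. The controls lay at neighbouring positions of the slide, as did the PAK1 shRNA samples, so position and group cannot be told apart.

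Levels are normalized log2 intensities, in which a step of 1 is a doubling of signal. Different probes bind their targets with different strength, so a level is compared between arrays and never between genes. PAK1, the kinase targeted by the shRNA, read 11.19 and 11.27 in control cells against 10.44 and 10.51 in PAK1 shRNA cells. The change in log2 intensity, PAK1 shRNA minus control, was -0.76 (SE 0.08, n = 2 and 2, limma with Benjamini-Hochberg adjusted p = 0.000184), which left 59.2% of the control signal. The knockdown was therefore partial at the RNA level.

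Many keratins are close copies of each other, so the probes of neighbours that moved differently were set side by side first. Each probe has 60 bases, written 5′ to 3′ as deposited with the scanner output, and capitals mark the bases identical between the paired probes where they overlap. KRT75, a hair follicle keratin, and KRT6C, a member of the KRT6 group, have probes from the same stretch of their coding sequences.

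KRT75: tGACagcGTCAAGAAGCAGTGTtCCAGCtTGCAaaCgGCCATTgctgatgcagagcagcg
KRT6C: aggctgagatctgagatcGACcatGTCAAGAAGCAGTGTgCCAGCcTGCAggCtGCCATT

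These probes overlap over 43 bases, of which 34 (79.1%) are identical, with a longest shared run of 15 bases. The KRT75 probe maps to hg19 chr12:52822220-52822420 and the KRT6C probe to chr12:52863651-52864324, both on the minus strand and both over spans longer than the probe. KRT14 and KRT16, type I partners of basal and of activated cells, are likewise probed at matching stretches.

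KRT14: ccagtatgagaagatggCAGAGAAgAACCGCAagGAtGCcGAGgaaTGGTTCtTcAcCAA
KRT16: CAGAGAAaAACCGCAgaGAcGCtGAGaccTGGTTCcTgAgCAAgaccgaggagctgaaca

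Of the 43 overlapping bases 32 (74.4%) are identical, and the longest shared run is 7 bases. The KRT14 probe lies at chr17:39740013-39740072 and the KRT16 probe at chr17:39767216-39767364, both on the minus strand. The probes of KRT6A, KRT6B and KRT6C, which are nearly the same protein, share at most 6 bases in a row with each other. Cross-binding between keratin transcripts was not tested.

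The keratins did not move as a family. Of the 59 genes 46 had a signal well above background throughout the arrays of 1 or both groups and were tested in the fit over 21990 genes. In PAK1 shRNA cells 16 of these 46 rose, 12 fell and 18 did not pass the threshold (limma, Benjamini-Hochberg adjusted p under 0.05). The same test called 30.6% of all genes higher and 32% lower, 62.5% in either direction, and the keratins, at 28 genes or 60.9%, lay near that background. Their median change was 0.10, beside 0.02 over all genes tested. Changes of at least 2-fold were found upwards in 4 keratins (KRT75, KRT6B, KRT80 and KRT9), that is 8.70% of those tested against 8.8% of all genes. Downwards there were 7 (KRT13, KRT15, KRT32, KRT10, KRT5, KRT42P and KRT19), that is 15.2% against 9.09%. The members with the largest changes were KRT13, KRT75 and KRT6B, and 1.03%, 1.66% and 1.85% of all genes tested moved by more. The groups did not overlap for 24 keratins that were higher and 16 that were lower, where 42% and 40.1% of all genes, or 82.1% in either direction, were so placed.

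All 3 basal keratins fell in PAK1 shRNA cells, by a median of -1.20, where 32% of all genes fell. KRT5 and KRT14 form the filament pair of basal cells. KRT5 read 17.09 and 16.82 in control cells and 15.86 and 15.65 in PAK1 shRNA cells, where 43.6% of its signal was left (change -1.20, SE 0.12, limma with Benjamini-Hochberg adjusted p = 0.000165). KRT14 read 15.63 and 15.68 against 14.59 and 14.74, which left 50.6% (change -0.98, SE 0.08, limma with Benjamini-Hochberg adjusted p = 8.4e-05). For both genes the PAK1 shRNA arrays lay below the control arrays by about 1 on the log2 scale. KRT15, a type I keratin of basal cells in stratified epithelia and of hair follicle stem cells, read 19.05 and 19.08 against 17.52 and 16.94. Its spot was saturated on both control arrays, so the fall is a bound of at least 3.55-fold lower (limma with Benjamini-Hochberg adjusted p = 0.000148). The pair KRT5 and KRT14 kept its balance within the spread of the arrays: the log2 ratio of KRT5 to KRT14 moved by -0.21 and the groups overlapped. In bulk RNA, fewer cells that make a keratin and less of its RNA per cell cannot be told apart.

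The luminal keratins did not share a direction, with 1 of 5 higher, 1 lower and 3 that did not pass (40% called, beside 62.5% of all genes). Their median of -0.06 turned its sign under the 75th percentile scaling (0.04) and cyclic loess (0.12). KRT8 and KRT18 form the filament pair of simple epithelia. KRT8 read 13.89 and 13.81 in control cells and 13.71 and 13.75 in PAK1 shRNA cells, a change of -0.12 with a 95% interval of -0.30 to 0.06 (limma with Benjamini-Hochberg adjusted p = 0.213). Its other probe read 7.84 and 8.17 against 7.72 and 7.70, a change of -0.29 that did not pass either (adjusted p = 0.0619 over all probes in limma), and the mean over both probes changed by -0.20 (adjusted p = 0.0536 in limma). KRT18 read 17.15 on control array 2 against 17.68 and 17.55 in PAK1 shRNA cells, with control array 1 left out because its spot was an outlier there, and rose by 0.47 (SE 0.10, limma with Benjamini-Hochberg adjusted p = 0.0110, with the control spread taken from the other arrays and genes). A KRT18 probe measured on all 4 arrays read 15.27 and 15.35 against 15.74 and 15.57, a rise of 0.34 with the groups apart. The members of this pair thus moved unequally, and on the 3 arrays with both values the log2 ratio of KRT8 to KRT18 was lower by 0.46 or more on either PAK1 shRNA array. KRT7, a type II keratin of ducts and glands, read 16.43 and 16.42 against 16.39 and 16.35, and its change of -0.06 had an interval of -0.23 to 0.11. The controls and the PAK1 shRNA samples did not overlap for KRT7, but the gap was small. KRT19, the keratin without a tail domain, was the luminal member that fell. It read 8.51 and 8.60 against 7.55 and 7.52 and fell to 49.4% of control (change -1.02, SE 0.07, limma with Benjamini-Hochberg adjusted p = 4.5e-05), and the log2 ratio of KRT7 to KRT19 moved by 0.96 with the groups apart. KRT20, a keratin of gut epithelium and urothelium, stayed close to the floor of the array, at 6.64 and 6.63 against 6.80 and 6.73, and its change of 0.13 did not pass (limma with Benjamini-Hochberg adjusted p = 0.171).

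Among the stress keratins KRT6B and KRT6A rose, KRT17 fell, and KRT6C and KRT16 did not pass the threshold. That is 60% of the list called, beside 62.5% of all genes. The median was -0.02, and its sign turned under 3 other scalings (0.08 with the 75th percentile, 0.11 with cyclic loess and 0.01 with the authors' values). KRT6B, a type II keratin induced in wounds, read 10.25 and 10.49 in control cells and 13.01 and 13.61 in PAK1 shRNA cells. That is a rise of 7.66-fold (change 2.94, SE 0.19, limma with Benjamini-Hochberg adjusted p = 2.8e-05), and the lowest PAK1 shRNA array stood far above the highest control. KRT6A, its closest relative, read 15.76 and 15.66 against 15.92 and 16.06, a rise of 1.22-fold (change 0.28, SE 0.08, limma with Benjamini-Hochberg adjusted p = 0.0251). The call on KRT6A was lost without control array 2 (adjusted p = 0.107 in limma) or PAK1 shRNA array 2 (adjusted p = 0.144 in limma). KRT6C read 13.24 and 13.25 against 13.14 and 13.31, so the groups overlapped, and the interval of its change was -0.22 to 0.18. The 3 forms of KRT6 thus moved unequally. Within an array the log2 ratio of KRT6B to KRT6A moved by 2.66 and that of KRT6B to KRT6C by 2.96, with the groups apart for both.

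KRT16 and KRT17 are type I keratins that appear beside KRT6 in activated epidermis. KRT16 read 10.33 and 10.30 in control cells and 10.05 and 10.34 in PAK1 shRNA cells, and the groups overlapped (change -0.12, interval -0.37 to 0.14). Without PAK1 shRNA array 1 its change was 0.03. KRT17, which is also made by basal cells of glands, read 15.85 and 15.79 against 15.01 and 15.14 and fell to 59.5% of control (change -0.75, SE 0.08, limma with Benjamini-Hochberg adjusted p = 0.000247). The log2 ratio of KRT17 to KRT16 moved by -0.63 and that of KRT6A to KRT17 by 1.03, again with the groups apart. With 2 arrays against 2, an exact permutation test of such a ratio cannot give a two-sided p below 0.333, so ratios are given without one.

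**Figure D1:**
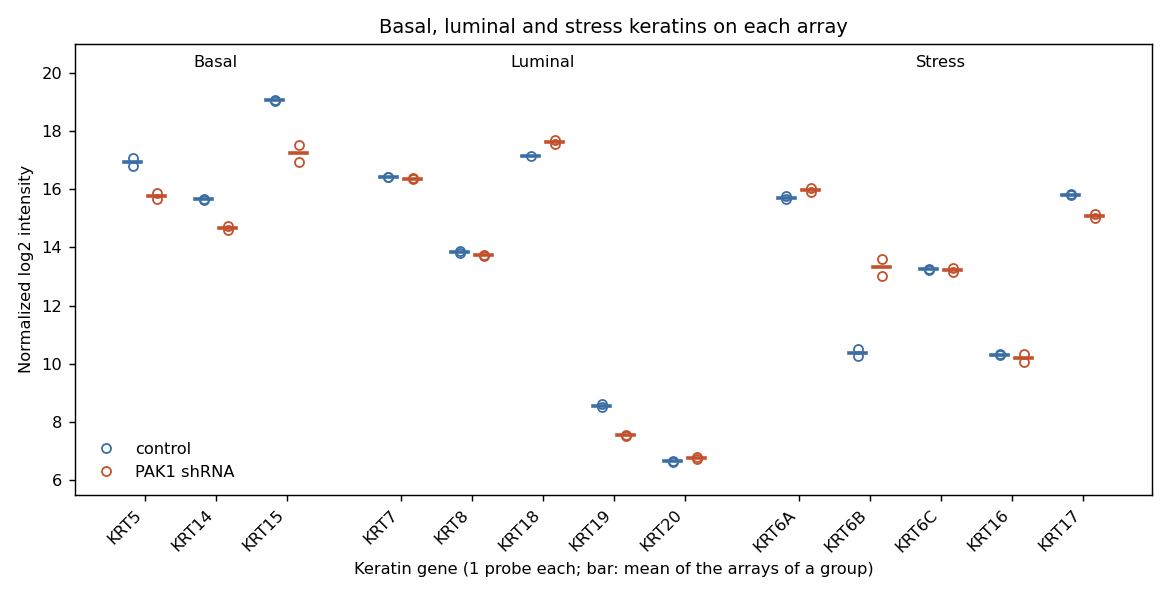
Normalized log2 intensity (vertical axis) of the basal, luminal and stress keratins, 1 probe per gene along the horizontal axis. Circles are arrays, blue for control and red for PAK1 shRNA cells, and bars are group means over the arrays with a value (KRT18 has 1 control array). The 3 basal keratins and KRT17 sit lower in PAK1 shRNA cells, KRT6B sits higher at 13.01 and 13.61 against 10.25 and 10.49, and KRT6C overlaps. Heights of different genes are not comparable.

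Keratins of differentiated and cornifying epithelium held the largest fall of the family. Of 14 such genes 9 were tested, 3 rose, 3 fell and 3 did not pass, with a median of 0.04. The share called was 66.7%, beside 62.5% of all genes. KRT13, made above the basal layer in moist mucosa with KRT4 as its partner, read 14.05 and 14.18 in control cells and 10.78 and 10.22 in PAK1 shRNA cells. It fell by 12.2-fold to 8.18% of control (change -3.61, SE 0.17, limma with Benjamini-Hochberg adjusted p = 8.2e-06). KRT4 read 7.84 and 7.60 against 7.59 and 7.44, a change of -0.20 that did not pass (limma with Benjamini-Hochberg adjusted p = 0.142), and the log2 ratio of KRT13 to KRT4 moved by -3.41. KRT10 and KRT1 are the pair that epidermal cells make on leaving the basal layer. KRT10 read 14.42 and 14.52 against 13.15 and 13.12 and fell to 39.5% of control (change -1.34, SE 0.08, limma with Benjamini-Hochberg adjusted p = 1.5e-05). KRT1 read 7.74 on control array 2, the array with a value, against 6.62 and 6.92 in PAK1 shRNA cells, and fell by 0.97 (SE 0.15, limma with Benjamini-Hochberg adjusted p = 0.00221). With 1 control array, the spread in this test comes from the PAK1 shRNA arrays and the other genes, and the change ran from -0.53 with the background correction fitted on all spots to -1.61 with the 75th percentile scaling.

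The differentiation keratins that rose were KRT80, KRT9 and KRT78. KRT80 read 7.50 and 7.54 in control cells and 9.03 and 8.87 in PAK1 shRNA cells, 2.71-fold higher (change 1.44, SE 0.08, limma with Benjamini-Hochberg adjusted p = 1.7e-05). KRT9, the keratin of palms and soles, read 8.26 and 8.30 against 9.32 and 9.44, 2.14-fold higher (change 1.10, SE 0.08). KRT78 read 8.75 and 8.95 against 9.62 and 9.68, 1.74-fold higher (change 0.80, SE 0.09). All of them were separated by more than the spread within either group. KRT3, the cornea keratin, and KRT76, a keratin of the palate, changed by 0.15 and 0.04 and did not pass.

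Of the 17 hair shaft keratins 11 were tested, of which 5 rose, 1 fell and 5 did not pass, with a median of 0.19. The share called was 54.5%, beside 62.5% of all genes. KRT32, a keratin of the hair cuticle, was the member that fell. It read 9.05 and 9.11 in control cells and 7.34 and 7.28 in PAK1 shRNA cells, 29.3% of control (change -1.77, SE 0.07, limma with Benjamini-Hochberg adjusted p = 4.8e-06). KRT81, KRT86 and KRT83 are type II hair cortex keratins of very similar sequence, so their probes may report each other. KRT86 read 8.74 and 8.79 against 9.72 and 9.75 and rose 1.96-fold (change 0.97, SE 0.07, limma with Benjamini-Hochberg adjusted p = 4.9e-05). KRT81 read 17.19 on control array 2, with array 1 left out, and 17.90 and 17.93 in PAK1 shRNA cells, a rise of 0.72. KRT83 read 12.95 and 13.05 against 13.55 and 13.51, a rise of 0.54, and its other probe rose by 0.51. All 3 thus moved in the same direction by less than 2-fold. The smaller rises of KRT33A and KRT39, type I hair keratins, were 0.35 and 0.31, and the call on KRT39 was lost without PAK1 shRNA array 2 (adjusted p = 0.0694 in limma). KRT31, KRT33B, KRT34, KRT35 and KRT85 did not pass, with changes from -0.07 to 0.19.

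Of the 9 inner root sheath keratins 7 were tested, of which 3 rose, 1 fell and 3 did not pass, also with a median of 0.19. The share called was 57.1%, beside 62.5% of all genes. KRT75, a type II keratin of the companion layer that was counted with the inner root sheath here, showed the largest rise of the family. It read 6.30 and 6.40 in control cells, just above the lowest signal called well above background, which lay between 6.12 and 6.21 on the 4 arrays, and 9.29 and 9.54 in PAK1 shRNA cells. The rise was 8.37-fold (change 3.06, SE 0.10, limma with Benjamini-Hochberg adjusted p = 2.0e-06), and the log2 ratio of KRT75 to KRT6C, whose probe is the most alike, moved by 3.09. The size of the rise varied with the processing, from 1.87 with the correction fitted on all spots to 5.13 with the 75th percentile scaling. KRT74, a type II keratin of the Huxley layer, fell from 7.81 and 7.63 to 7.32 and 7.22 (change -0.45, SE 0.09, limma with Benjamini-Hochberg adjusted p = 0.00480). KRT71 and KRT73, further type II keratins of the inner root sheath, rose by 0.32 and 0.30, calls that were lost without PAK1 shRNA array 2 for KRT71 (adjusted p = 0.0617 in limma) and without PAK1 shRNA array 1 for KRT73 (adjusted p = 0.0717 in limma). KRT25, KRT26 and KRT28, type I partners in the same sheath, changed by 0.19, 0.13 and -0.04 and did not pass.

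The last 6 genes were pseudogenes and keratins outside the other lists, of which 2 rose, 2 fell and 2 did not pass (66.7% called, beside 62.5% of all genes). KRT16P2, a pseudogene copied from KRT16, fell from 13.71 and 13.81 to 12.74 and 12.98 (change -0.90, SE 0.10), whereas KRT16 itself did not pass. KRT42P fell from 13.84 and 13.94 to 12.65 and 12.78 (change -1.17, SE 0.08), but its other probe changed by -0.01, so the probes of this pseudogene disagreed. KRT16P2 and KRT42P probes can share signal with related genes, so their values are uncertain. KRT222 rose 1.49-fold (change 0.58, SE 0.08), with the groups apart. KRT23, a type I keratin, rose by 0.28, a call that was lost without either control array or without PAK1 shRNA array 2 (adjusted p from 0.0927 to 0.186 in limma). KRT8P12 changed by 0.17 and did not pass. KRT19P2 entered the test through the control cells alone, at 6.43 and 6.49, and was not well above background in PAK1 shRNA cells, at 6.26 on array 2 with array 1 left out. The difference did not pass (limma with Benjamini-Hochberg adjusted p = 0.126).

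**Figure D2:**
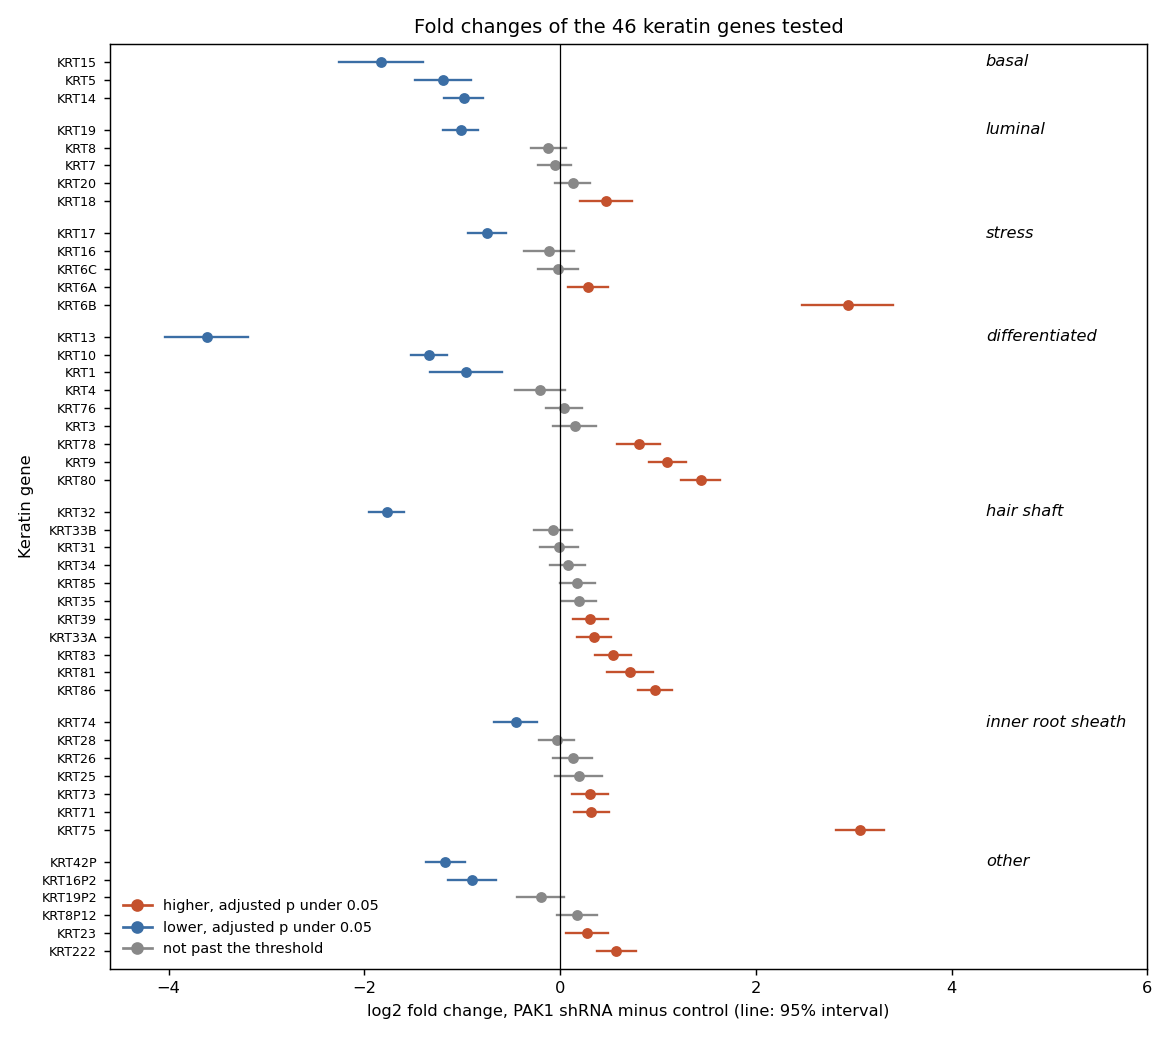
Change in log2 intensity, PAK1 shRNA minus control (horizontal axis), of the 46 tested keratins (vertical axis), grouped by list. Points are limma estimates, lines are 95% intervals, and colours give the call at an adjusted p under 0.05. The changes run from -3.61 for KRT13 to 3.06 for KRT75, and the 3 basal keratins are the only list in which every member fell. The KRT15 point is a bound because of saturation.

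The 13 keratins that were not tested include 8 at background on every array: KRT12 of the cornea, KRT2 of the upper epidermis, the hair keratins KRT37, KRT38, KRT40, KRT82 and KRT84, and KRT72 of the inner root sheath. KRT24, KRT77 and KRT79 were above background on 1 control array, and KRT27 and KRT36 on 1 array of each group. In all, between 45 and 51 keratin genes were well above background on an array, with control array 1 the highest.

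Neighbours in the gene clusters were then read in order. On chromosome 12, which holds the type II cluster and KRT18, 21 of 27 keratins were tested, 11 rose and 3 fell, with a median of 0.28. On chromosome 17 21 of 28 keratins that are not pseudogenes were tested, 5 rose and 7 fell, with a median of -0.01. The shares called were 66.7% on chromosome 12 and 57.1% on chromosome 17, beside 62.5% of all genes (30.6% higher, 32% lower, median 0.02). A difference between the chromosomes was not tested. KRT75 and KRT6B, the genes with the largest rises, are direct neighbours in the order of probes, followed by KRT6C with a change of -0.02, KRT6A with 0.28 and KRT5 with -1.20. KRT81, KRT86 and KRT83 are also consecutive and all rose. On chromosome 17 KRT13, KRT15 and KRT19 are consecutive and all fell, next to KRT9, which rose, and KRT14, which fell. Shared regulation of neighbours was not tested.

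Promoter sequences from RefSeq (GRCh38.p14) matched 34 of the 59 keratins, and the 250 bases before the start are shown for the genes with an entry that changed most: KRT75, which rose, and KRT5 and KRT10, which fell. KRT75 is at chr12:52434372-52434621, KRT5 at chr12:52520395-52520644 and KRT10 at chr17:40822615-40822864, all on the minus strand. Capitals mark the motifs found on either strand, the SP1 motif GGGCGG (here as its complement) in KRT75 and, in KRT10, a TATA box TATAAA and the interferon response core, GAAA repeated after any 2 bases (as its complement).

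KRT75: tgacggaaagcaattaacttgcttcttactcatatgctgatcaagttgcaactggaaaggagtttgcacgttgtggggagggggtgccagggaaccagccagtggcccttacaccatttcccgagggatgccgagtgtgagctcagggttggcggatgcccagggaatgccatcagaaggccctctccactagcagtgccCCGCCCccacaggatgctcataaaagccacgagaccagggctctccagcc
KRT5: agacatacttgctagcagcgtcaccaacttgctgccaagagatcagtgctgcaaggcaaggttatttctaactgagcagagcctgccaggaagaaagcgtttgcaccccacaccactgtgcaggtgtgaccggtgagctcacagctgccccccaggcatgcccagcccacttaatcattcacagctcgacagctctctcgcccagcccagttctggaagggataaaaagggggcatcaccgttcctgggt
KRT10: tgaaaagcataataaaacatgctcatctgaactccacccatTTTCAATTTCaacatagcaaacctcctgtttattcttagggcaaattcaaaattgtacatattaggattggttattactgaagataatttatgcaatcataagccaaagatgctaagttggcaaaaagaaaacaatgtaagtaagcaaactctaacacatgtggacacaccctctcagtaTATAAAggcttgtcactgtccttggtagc

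The SP1 motif lies 50 bases before the start of KRT75. In KRT10 the TATA box lies 29 bases and the interferon response core 209 bases before the start, and KRT5 held none of the motifs searched. Over the 250 bases before the start, TATAAA was found in 21 of 34 keratin genes and in 10.7% of 35116 promoters. GGGCGG was found in 4 of 34 and 42.6%. The AP-1 motif TGANTCA was found in 0 of 34 and 6.57%, the GAS motif TTCNNNGAA in 2 of 34 and 6.57%, and the interferon response core in 3 of 34 and 3.02%. KRT6A, KRT6B, KRT6C, KRT13 to KRT19 and KRT80 were among the keratins without an entry. These shares therefore leave out every stress keratin, KRT14 and KRT15 of the basal list, and KRT18 and KRT19 of the luminal list. Matches on either strand were counted. A keratin gene counted if any of its promoter entries held a match, whereas the percentages are over single promoters, so their units differ. The motifs are matches of letters and not sites of binding.

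Genes that anchor or control keratin filaments were read from the same fit. Of 16 filament partners, such as desmosome and plakin proteins, 2 rose, 8 fell and 6 did not pass, with a median of -0.25, where 30.6% of all genes rose and 32% fell. The largest falls were those of PKP3, a plaque protein of desmosomes (change -0.94), and of EVPL and PPL, the plakins of the cornified envelope (-0.82 and -0.71). PKP3 read 15.72 and 15.74 in control cells against 14.86 and 14.71. EVPL read 12.93 and 12.57 against 11.97 and 11.90, and PPL 13.50 and 13.22 against 12.65 and 12.63, so the groups were apart for all of them. Of 24 regulators of keratin genes 22 were tested, 15 rose and 2 fell, with a median of 0.32, beside the same shares of all genes and an all-gene median of 0.02. KLF4, a factor of epithelial differentiation, read 7.20 and 7.17 against 10.58 and 10.97, a change of 3.59, and SOX9, a factor of hair follicle and mammary progenitor cells, 8.95 and 9.17 against 10.13 and 10.69, a change of 1.35. The part of these factors in the keratin changes was not tested.

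Markers other than keratins were used to check the cell type. All 8 basal markers were well above background on every array with a value, and their mean log2 level ran from 13.9 to 14.0 in both groups (6 markers with values on all arrays). TP63, the master factor of basal cells, fell by 1.13. Of 8 luminal markers 5 were above background on all arrays, PGR on none, and their mean was 7.96 and 7.84 in control and 8.37 and 8.39 in PAK1 shRNA cells. The fibroblast list was above background for 3 of 6 genes, with COL1A2 and COL3A1 at background, and its mean was 7.76 and 7.62 against 8.19 and 8.20. All 6 leukocyte markers passed the background rule, and the mean of the 5 with values on all arrays was 8.15 and 8.11 against 8.48 and 8.37. PTPRC and CD3E lay between 7.02 and 7.85 and did not pass the threshold, whereas the myeloid markers CD14, CSF1R and ITGAM rose by 1.23, 0.65 and 0.46. CD14, which is outside that mean, read 14.22 and 14.16 against 15.42 on PAK1 shRNA array 1. All 4 endothelial markers passed the background rule too, and the mean of the 3 with values on all arrays was 8.17 and 8.21 against 7.87 and 7.82. In that list PECAM1 fell by 1.56 and VWF rose by 0.37, and CDH5 and KDR, with changes of 0.15 and 0.14, did not pass. The part of cell type makeup in the keratin changes was not tested.

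The leading changes held their direction under other processing of the arrays and with single arrays left out, and the ranges here cover both. KRT13 ran from -3.89 to -3.33 and KRT6B from 2.64 to 3.24, with both ends from leaving out a PAK1 shRNA array. KRT5 ran from -1.33, without control array 2, to -0.98. KRT14 ran from -1.06 to -0.79, KRT80 from 0.91 to 1.93 and KRT32 from -2.29 to -1.12. KRT19 ran from -1.31 to -0.63, KRT74 from -0.62 to -0.26, KRT33A from 0.19 to 0.68, KRT39 from 0.17 to 0.54, KRT71 from 0.17 to 0.67, KRT6A from 0.21 to 0.52 and KRT23 from 0.14 to 0.93. KRT6C, KRT7, KRT8 and KRT16 crossed 0 in at least 1 alternative, and none of these genes passed the threshold in the reported fit. The call on KRT73 was lost with median centring and KRT23 with the background correction fitted on all spots, while KRT20 passed with median centring (change 0.40).

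**Figure D3:**
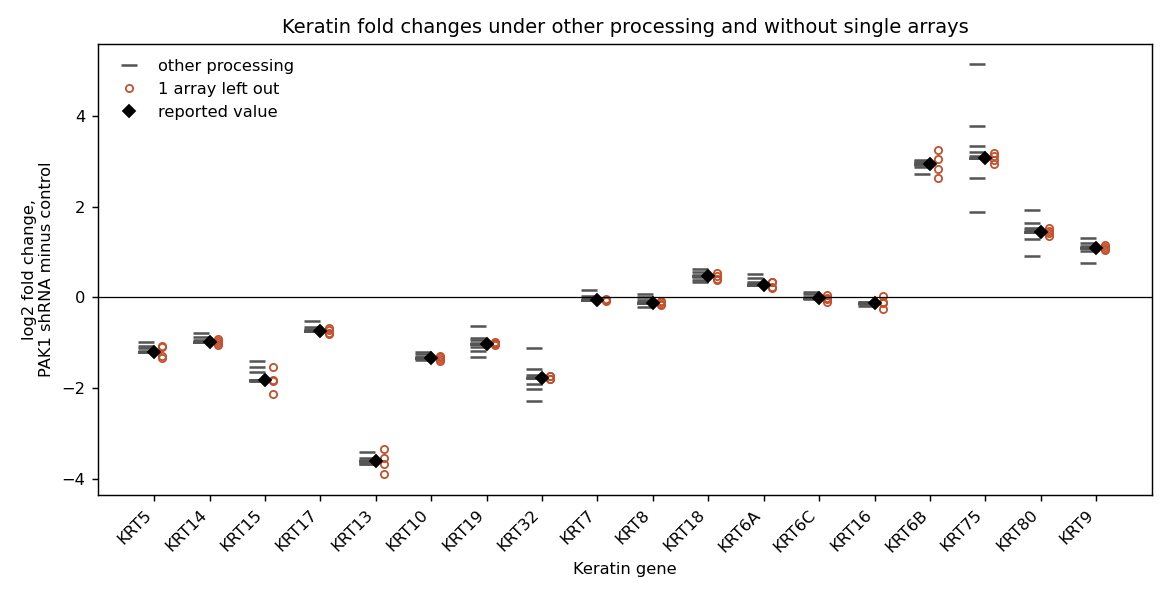
Change in log2 intensity, PAK1 shRNA minus control (vertical axis), of 18 keratins (horizontal axis) as reported (diamonds), under other processing (dashes) and with 1 array left out (circles). KRT75 has the widest range, from 1.87 to 5.13, and KRT6C, KRT7, KRT8 and KRT16 lie on both sides of 0.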

How the data were processed

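Arrays of control and PAK1 shRNA MCF10A.B2 cells (2 each) were grouped by their labels. Spot intensities were deposited as written by Agilent Feature Extraction 9.5 per the labels, not normalized between arrays. A deposited table of the authors' log2 values (24302 rows, medians 9.40 to 9.42, r with the values used here at least 0.999, 49 keratin genes) served as an alternative. Spots flagged as outliers (716 to 851 per array) were left out before normexp background correction (offset 50). Those with a flagged local background had moved the fit of this correction on the control arrays. Control spots were then dropped and arrays quantile normalized, as the methods name. Of the probes of a gene well above background on both arrays of 1 or more groups, the one with the highest mean was tested with lmFit and eBayes (limma 3.58.1, R 4.3.3), with Benjamini-Hochberg adjustment over 21990 genes and a threshold of 0.05. The fit was tested on simulated data. A gene saturated, or not above background, in a whole group has a bound.

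The precision is limited by 2 arrays per group, whose probes were above background for 78.9% to 83.2%. Replicate correlations were 0.998. Keratins of the basal, luminal and stress lists and all others past the threshold were named, as were the 3 largest changes among partners and among regulators, of which 1 regulator is not reported here. TP63 and members that missed the threshold are given as well, as parts of their lists. Members and lists were chosen with earlier results of these data known. Probe coordinates are those of the files (hg19). Alternatives covered background correction, normalization, filter, probe rule, flags, the replicate block, test, threshold and leaving out each array, and keeping feature outliers was added after seeing the data. Mouse arrays were not analysed here.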

Additional observations from a re-analysis of the deposited data

How the results depend on the processing

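The 33 keratins named by the rule kept direction and outcome in 566 of their values under alternatives, lost the call in 40, gained it in 1 and changed sign in 9. The 566 include KRT7, KRT8, KRT20, KRT6C and KRT16 where they stayed uncalled, and settings that leave the change as it was. The 40 include losses under the stricter cut-offs alone. These counts therefore do not measure how robust the calls are. The sign changed for KRT6C (0.082 with 75th percentile scaling, 0.11 with cyclic loess, 0.0091 with the authors' processed values and 0.062 without PAK1 shRNA array 1), KRT7 (0.035 and 0.16 with the 75th percentile and cyclic loess), KRT8 (0.010 and 0.069 with the same) and KRT16 (0.027 without PAK1 shRNA array 1, and down to -0.26 without PAK1 shRNA array 2). None of these had passed the threshold, and the cause was not tested. The luminal median was 0.035 with the 75th percentile, 0.12 with cyclic loess and -0.0082 with the authors' values, and the stress median 0.082, 0.11 and 0.0091. The basal median was -0.98 with cyclic loess. With the authors' values it was -1.03, over KRT5 and KRT14 only, because KRT15 had no value there.

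Beyond the 2-fold threshold were 1936 genes that rose and 1999 that fell, 4 keratins that rose and 7 that fell, and not PAK1 (-0.76). The unpaired t-test of the study's statistics section called 11533 genes of 21023, and 25 keratins, unadjusted. After Benjamini-Hochberg adjustment it called 4179 genes higher and 4553 lower, and of 42 keratins 8 higher and 9 lower. The luminal median was -0.087 over the keratins with values on all arrays. This t-test did not call KRT15, KRT6A, KRT222, KRT23, KRT39, KRT71, KRT73 or KRT74. KRT1, KRT18 and KRT81 lacked a value on control array 1 and could not enter it. With single arrays left out, the lone array of a group was assumed to vary like the other group, and PAK1 ran from -0.80 to -0.72, genes called higher from 5619 to 6267 and lower from 5963 to 6618, keratins called higher from 12 to 16 and lower 12, the basal median from -1.33 to -1.06, the luminal median from -0.07 to -0.04 and the stress median from -0.10 to 0.062. Under the replicate block 6668 genes rose and 6808 fell, 14 keratins higher and 11 lower, the luminal median was -0.087, and PAK1 stayed at -0.76. Same-numbered arrays did not deviate together (r 0.01 over 21023 genes), so they share only a number. The 75th percentile and median centring moved the median change of all genes to 0.11 and 0.14, against 0.02, and the share of calls that were higher to 53.6% and 56.0%, against 48.9%.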
